A study of Mus musculus with 8 samples.

Results

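The SR and hnRNP genes of mouse skeletal muscle were followed across satellite cells, endothelial cells and single muscle fibres. Members were the rows of the deposited gene table whose symbol is Srsf with a number or begins with Hnrnp, without 1 name marked as a pseudogene by -ps, which gave 31 of 36048 genes, 11 of them Srsf and 20 Hnrnp. Tests covered the genes with an FPKM (fragments counted per kilobase and scaled to the library's total of fragments) of 1 or more in 2 or more libraries, and 30 members were among them. The exception was Srsf12, with 1.06 and 0.60 FPKM in satellite cells and 0.580, 0.558 and 0.509 FPKM in endothelial cells, and listed at 0 in the 3 fibre libraries.

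SR proteins carry RNA recognition motifs and a tail rich in arginine-serine dipeptides, and most of them bind exonic enhancers and recruit the spliceosome once kinases have phosphorylated that tail. The hnRNP proteins coat nascent RNA, and many of them repress splice sites or act on export, stability and translation of mRNA. Both families keep their own levels in check through alternative exons and retained introns that send transcripts to decay. In human muscle, mutations of the genes for hnRNP A1, hnRNP A2/B1 and hnRNP DL are known causes of inherited myopathy.

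The satellite cell libraries (SC, n = 2, numbered 1 and 3) and endothelial cell libraries (EC, n = 3) each came from about 100000 cells sorted from hindlimb muscles. The single muscle fibre libraries (SMF, n = 3) held 100 fibres of the extensor digitorum longus (EDL), hand-picked after a rest of 3 h. The labels name no strain, age, sex, genotype, treatment or sorting marker, nor whether replicates are separate animals, so every p-value rests on the spread among 8 libraries, which may be technical. Muscle of origin, way of isolation and population differ together and cannot be told apart, and 1 sample, not named in the labels, missed the stated RNA integrity.

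Aligned bases came to 277.9 to 312.9 Mb in SC, 297.8 to 367.8 Mb in EC and 525.5 to 580.8 Mb in SMF libraries, as deduced from deposited coverage and FPKM. The markers matched the labels. Summed FPKM of 8 satellite cell markers was 786 to 816 in SC, 16.5 to 24.5 in EC and 21.5 to 25.5 in SMF, and Pax7 was listed at 0 in all EC libraries. Summed FPKM of 8 endothelial markers was 18.5 to 26.2 in SC, 1186 to 1295 in EC and 3.09 to 3.91 in SMF, and that of 8 fibre markers was 181 to 291 in SC, 10.4 to 22.6 in EC and 29900 to 32896 in SMF. Markers of other cell types were read too, and their sums also differed between populations. Genes within a list did not all move together, so a sum may rest on few genes. For SC minus EC, 2 of 8 fibro-adipogenic progenitor markers were called higher, 1 lower and 5 neither. Of 8 pericyte and smooth muscle markers, 2 were higher and 5 lower. Markers of fibro-adipogenic progenitors summed to 253 to 257 in SC, 123 to 201 in EC and 22.9 to 48.7 in SMF, and those of pericytes and smooth muscle to 218 to 273, 226 to 698 and 28.8 to 29.9. Immune cell markers summed to 28.2 to 35.3 in SC, 14.8 to 79.4 in EC and 1.82 to 5.26 in SMF, with Adgre1 at 0 in SC and SMF, and 5 erythroid markers to 63.9 to 113, 270 to 582 and 11.6 to 52.7. The part of these cells in the results below was not tested. In such bulk libraries, fewer cells of a type and less RNA of a gene per cell cannot be told apart.

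Both families were most abundant in satellite cells and least abundant in fibres. The 31 genes together held 972 and 1009 FPKM in SC libraries, 661, 547 and 734 FPKM in EC libraries and 188, 147 and 148 FPKM in SMF libraries. The groups did not overlap, with mean sums 6.15 times as high in SC as in SMF, 4.02 times as high in EC as in SMF and 1.53 times as high in SC as in EC. A few very abundant RNAs take much of a library here: the 10 most abundant genes held 63.7% to 66.8% of all FPKM in SC, 70.9% to 75.1% in EC and 76.2% to 78.9% in SMF. Shares were also taken of the FPKM left after removing the 50 most abundant genes of each population. The 31 genes made up 0.367% ± 0.0364 of it in SC, 0.307% ± 0.0321 in EC and 0.124% ± 0.0195 in SMF (SD, n = 2, 3 and 3). On that scale the SC and EC libraries overlapped (0.341% and 0.392% against 0.284%, 0.292% and 0.343%), while every SC and EC library stayed above every fibre library. Within EC, replicate 2 was the lowest of the group for 24 of the 30 tested members.

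**Figure D1:**
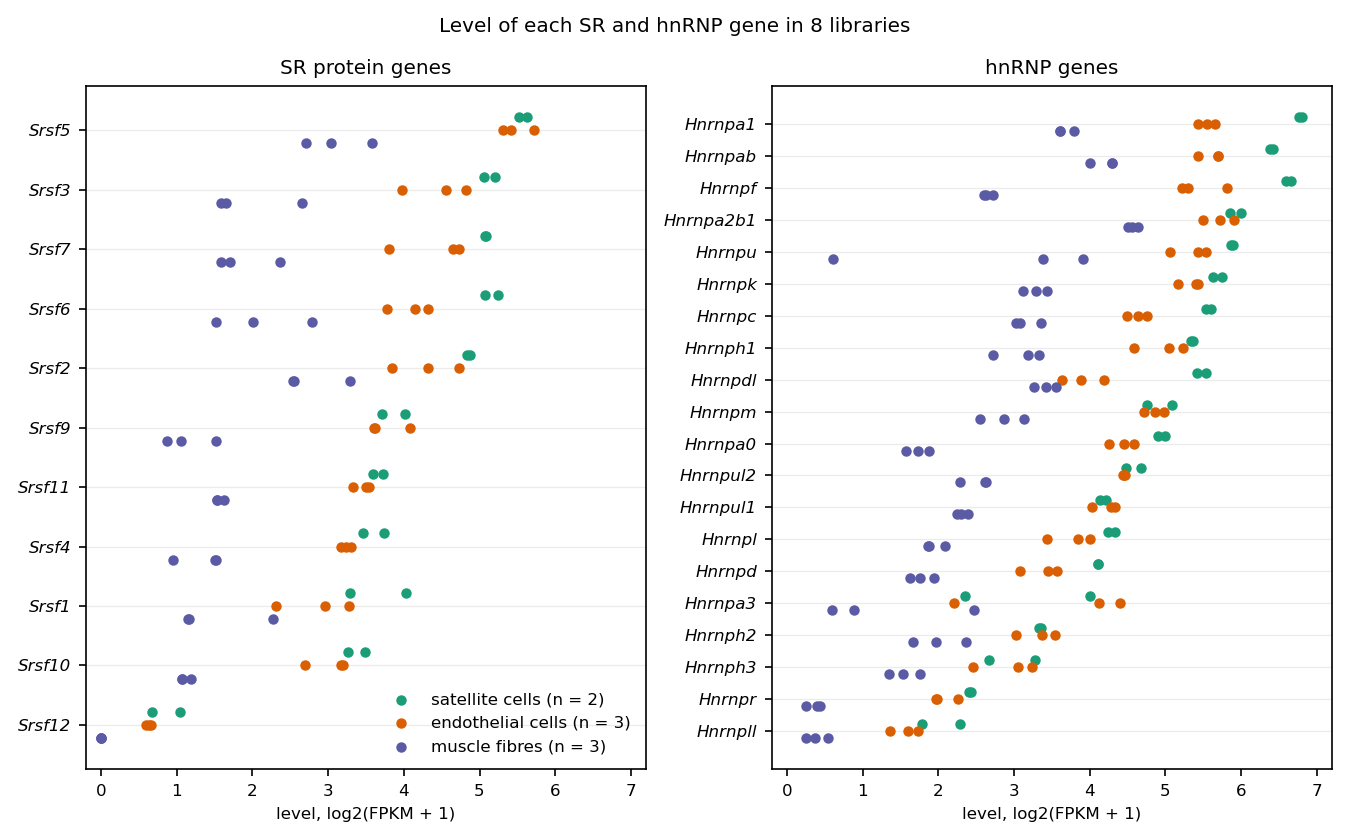
Level of each SR gene (left) and hnRNP gene (right) as log2(FPKM + 1), with 1 point for each library of satellite cells, endothelial cells and muscle fibres. Fibre points lie to the left of the others for all tested members except Hnrnpa3, and 1 fibre library of Hnrnpu stands at 0.528 FPKM.

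Srsf5 led the SR genes in all 3 populations. This SR protein, coded on chromosome 12 (80945495 to 80950507, GRCm38), had 48.5 and 44.9 FPKM in SC, 41.5, 38.6 and 51.6 FPKM in EC and 11.0, 5.54 and 7.24 FPKM in SMF. Its SC and EC values overlapped. Srsf6, Srsf3 and Srsf7 followed in SC with means of 34.7, 34.1 and 32.8 FPKM, which do not differ beyond their spread, and Srsf3, Srsf7 and Srsf2 followed in EC with 21.6, 20.8 and 19.3 FPKM. In SMF the second place went to Srsf2, with 8.76, 4.86 and 4.82 FPKM. Among the hnRNP genes, Hnrnpa1 led in SC with 109 FPKM on average, whereas Hnrnpa2b1 led in both EC (51.5 FPKM) and SMF (22.7 FPKM). These ranks are of gene FPKM and differ in TPM, another measure of level from the authors, not listed for Hnrnpa3 and Hnrnpu. In mean TPM Hnrnpa2b1 led in SC too (187, against 81.8 for Hnrnpa1), as in EC (145) and SMF (64.7). Srsf5 still led the SR genes, with mean TPM of 69.8, 63.2 and 13.4 in SC, EC and SMF. Srsf11 came next in each, with 61.1, 60.2 and 9.64. It stood above Srsf5 in EC replicate 1 (58.2 against 51.1) and SMF replicate 3 (9.76 against 7.77), so the lead is one of means.

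Satellite cells were compared with endothelial cells, both sorted from hindlimb muscle. Of the 30 members, 8 were higher in SC and 0 were lower (limma, Benjamini-Hochberg adjusted p under 0.05 over all genes), against 37.7% of the 16700 genes tested that were called in either direction, 21.2% higher and 16.4% lower. The 8 were 7 hnRNP genes and 1 SR gene. At an unadjusted p under 0.05, 9 members passed. FPKM is relative to a library's total, so other scalings were tried. The 3 were trimmed (the total without the 50 most abundant genes of each population), upper-quartile and median-of-ratios. They gave 4, 8 and 6 higher and 0 lower, beside 32.2%, 34.3% and 32.5% of all genes called in either direction. The median difference of the members was 0.44 on the log2(FPKM + 1) scale and that of all genes 0.11. Values of the libraries did not overlap, SC above EC, for 22 of 30 members (73.3%), and for 31.5% of all genes. Differences on this scale understate those of genes with low FPKM.

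Hnrnpdl, a paralog of the AU-rich element binding protein Hnrnpd, showed the largest difference. It had 41.8 and 45.5 FPKM in SC, against 17.3, 11.4 and 13.8 FPKM in EC (log2 difference 1.58, SE 0.20, limma adjusted p = 0.000572). Both SC libraries stood far above the highest EC library. Hnrnpa1, a shuttling repressor of splice sites (chromosome 15, 103239943 to 103246698), had 108 and 111 FPKM in SC, against 42.1, 46.0 and 49.5 FPKM in EC (1.24, SE 0.15, adjusted p = 0.000529). Its replicates lay close together and the groups far apart. Hnrnpf, which binds G-rich stretches (chromosome 6, 117900340 to 117925622), had 95.7 and 99.7 FPKM in SC, against 38.4, 36.3 and 55.0 FPKM in EC (1.18, SE 0.20, adjusted p = 0.00263). Hnrnpc, which packages nascent RNA by binding runs of uridine, had 47.5 and 45.3 FPKM in SC, against 26.1, 21.5 and 24.0 FPKM in EC (0.93, SE 0.17, adjusted p = 0.00335). These 4 genes, of the 8 called, kept their call in every alternative run.

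The remaining 4 calls were less firm. Hnrnpab, an RNA and DNA binding paralog of Hnrnpd, had 84.4 and 82.0 FPKM in SC, against 50.7, 42.2 and 50.7 FPKM in EC (0.79, SE 0.17, adjusted p = 0.00845), and lost its call in 1 of 19 alternatives, the trimmed scaling (adjusted p = 0.0939). Hnrnpd itself, known for AU-rich element decay, had 16.3 and 16.2 FPKM in SC, against 9.92, 7.46 and 10.9 FPKM in EC (0.74, SE 0.19, adjusted p = 0.0158). Its call was lost under the same scaling (adjusted p = 0.134) and without SC replicate 1 or SC replicate 3, where adjusted p reached 0.0675. Srsf6, an SR protein that acts through exonic enhancers, had 32.6 and 36.8 FPKM in SC, against 16.7, 12.7 and 19.0 FPKM in EC (1.07, SE 0.35, adjusted p = 0.0451), and kept its call in 5 of 19 alternatives. The call was lost without SC replicate 1 (1.16) or 3 (0.99). Without EC replicate 1, 2 or 3 or SMF replicate 3 it was lost too (0.92 to 1.20, adjusted p of 0.0591 to 0.110). The small intronless gene Hnrnpa0 had 29.0 and 30.9 FPKM in SC, against 22.9, 18.1 and 21.0 FPKM in EC (0.52, SE 0.16, adjusted p = 0.0374), and kept its call in 6 of 19 alternatives. It was lost without SC replicate 1 (0.57) or 3 (0.48). Without EC replicate 2 or 3 or SMF replicate 3 the call was lost too (0.43 to 0.54, adjusted p of 0.0622 to 0.0706). In all 4 the SC values lay above every EC value.

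Members that were not called included the other abundant SR genes. Srsf3, the smallest SR protein, had 35.9 and 32.4 FPKM in SC, against 22.6, 14.8 and 27.2 FPKM in EC (0.68, SE 0.37, adjusted p = 0.193). Srsf7, which carries a zinc knuckle, had 33.0 and 32.7 FPKM in SC, against 24.0, 13.0 and 25.4 FPKM in EC (0.69, SE 0.33, adjusted p = 0.147). In both genes EC replicate 2 lay well under the other EC libraries. Srsf5 differed by 0.10 (SE 0.26, adjusted p = 0.811) and Hnrnpa2b1, with 56.7 and 63.1 FPKM in SC against 51.6, 44.0 and 58.9 FPKM in EC, by 0.22 (SE 0.17, adjusted p = 0.355). The sign of both is not settled, since Srsf5 turned to -0.07 after median-of-ratios scaling and both were below 0 after trimmed scaling.

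Windows of 250 bases upstream of a listed RefSeq start (GRCm38.p6) were available for 29 of the 31 members, the 8 called genes included. Of the 29 windows, 8 stood at the start of the gene, and several others lay inside it. They are shown for the 4 called genes whose window ends exactly where the gene begins, since these genes differed between SC and EC together and a window inside a gene may hold exons. Capitals mark CCAAT and GGGCGG and their reverse complements, ATTGG and CCGCCC. Hnrnpf (chr6:117900090-117900339, plus strand) holds neither, Srsf6 (chr2:162931258-162931507, plus strand) holds GC boxes only, and Hnrnpab (chr11:51606882-51607131, minus strand) and Hnrnpa0 (chr13:58128557-58128806, minus strand) hold both kinds.
Hnrnpf: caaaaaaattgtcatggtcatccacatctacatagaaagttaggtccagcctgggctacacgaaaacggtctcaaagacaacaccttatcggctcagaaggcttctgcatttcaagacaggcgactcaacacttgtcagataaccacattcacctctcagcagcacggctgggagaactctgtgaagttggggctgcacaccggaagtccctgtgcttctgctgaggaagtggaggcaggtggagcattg
Srsf6: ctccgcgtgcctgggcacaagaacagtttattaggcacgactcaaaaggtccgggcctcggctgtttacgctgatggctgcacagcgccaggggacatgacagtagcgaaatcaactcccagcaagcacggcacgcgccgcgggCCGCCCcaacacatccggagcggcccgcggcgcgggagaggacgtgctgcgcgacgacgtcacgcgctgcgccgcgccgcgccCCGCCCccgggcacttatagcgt
Hnrnpab: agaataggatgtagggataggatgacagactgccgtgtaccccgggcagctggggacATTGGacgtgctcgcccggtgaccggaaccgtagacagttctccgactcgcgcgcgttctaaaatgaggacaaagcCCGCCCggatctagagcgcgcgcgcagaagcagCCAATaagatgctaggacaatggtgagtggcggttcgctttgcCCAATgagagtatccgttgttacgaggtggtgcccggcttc
Hnrnpa0: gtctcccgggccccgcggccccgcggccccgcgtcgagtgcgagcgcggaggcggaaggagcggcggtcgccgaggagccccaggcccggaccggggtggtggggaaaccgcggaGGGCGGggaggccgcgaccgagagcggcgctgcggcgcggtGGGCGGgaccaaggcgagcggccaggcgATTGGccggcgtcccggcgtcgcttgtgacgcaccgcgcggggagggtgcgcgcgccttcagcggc

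Counted on both strands over the 29 windows, of which 8 stood at the gene start, CCAAT occurred in 51.7% of members and 34.5% of 27025 genes, GGGCGG in 79.3% and 33.0%, and CCGGAAGT, a core bound by ETS factors, in 13.8% and 2.92%. TATAAA occurred in 10.3% of members and 13.0% of all genes, and CAGCTG, an E box of the type MyoD binds, in 10.3% and 12.7%. CCAAT stood in 4 and GGGCGG in 6 of the 8 called genes. The members' windows are rich in G and C, with a median of 65.2% against 52.0% for all genes, and a GC-rich motif is more frequent in such windows. The matches describe letters only.

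Satellite cells were compared with fibres next. Of the 30 members, 29 were higher in SC and 0 were lower, against 65.1% of all genes called in either direction, 56.5% higher and 8.57% lower. Trimmed, upper-quartile and median-of-ratios scaling gave 25, 24 and 23 higher and 0 lower, beside 50.7%, 52.9% and 49.8% of all genes called in either direction. As deposited, 29 members passed an unadjusted p under 0.05. The members' median difference was 2.27, beside 0.93 for all genes, and SC lay above SMF without overlap for 29 of 30 members (96.7%) and 67.0% of all genes. Hnrnpf differed most, with its SC values given above against 5.59, 5.10 and 5.17 FPKM in SMF (log2 difference 3.97, SE 0.20, limma adjusted p = 3.88e-06), a ratio of means of 18.5. Hnrnpa0 stood at 2.68, 1.99 and 2.33 FPKM in SMF (3.22, SE 0.16, adjusted p = 3.96e-06). Hnrnpa1 stood at 12.9, 11.2 and 11.2 FPKM in SMF (3.11, SE 0.15, adjusted p = 3.39e-06). Each of the 3 fibre libraries was below every SC library in these 3 genes, and the calls held in every alternative.

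Among SR genes the differences, SC minus SMF, were between 2.06 and 3.20, and all 10 tested were called. Srsf7 stood at 4.17, 1.99 and 2.25 FPKM in SMF (3.20, SE 0.33, adjusted p = 9.66e-05), Srsf3 at 5.29, 2.13 and 1.99 FPKM (3.17, SE 0.37, adjusted p = 0.000171) and Srsf6 at 5.90, 1.86 and 3.03 FPKM (3.05, SE 0.35, adjusted p = 0.000164). Fibre replicate 1 was the highest of its group in these 3 genes, and was so for 21 of the 30 tested members. Srsf5 differed by 2.46 (SE 0.26, adjusted p = 0.000115). At the other end stood Hnrnph2 (1.34, SE 0.24, adjusted p = 0.00161) and Hnrnpa2b1, an hnRNP also known for mRNA transport, with 21.7, 23.8 and 22.6 FPKM in SMF (1.36, SE 0.17, adjusted p = 0.000259). The calls of both were lost under all 3 other scalings. After median-of-ratios scaling Hnrnph2 differed by 0.01 (adjusted p = 0.990) and Hnrnpa2b1 by -0.20 (adjusted p = 0.292).

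**Figure D2:**
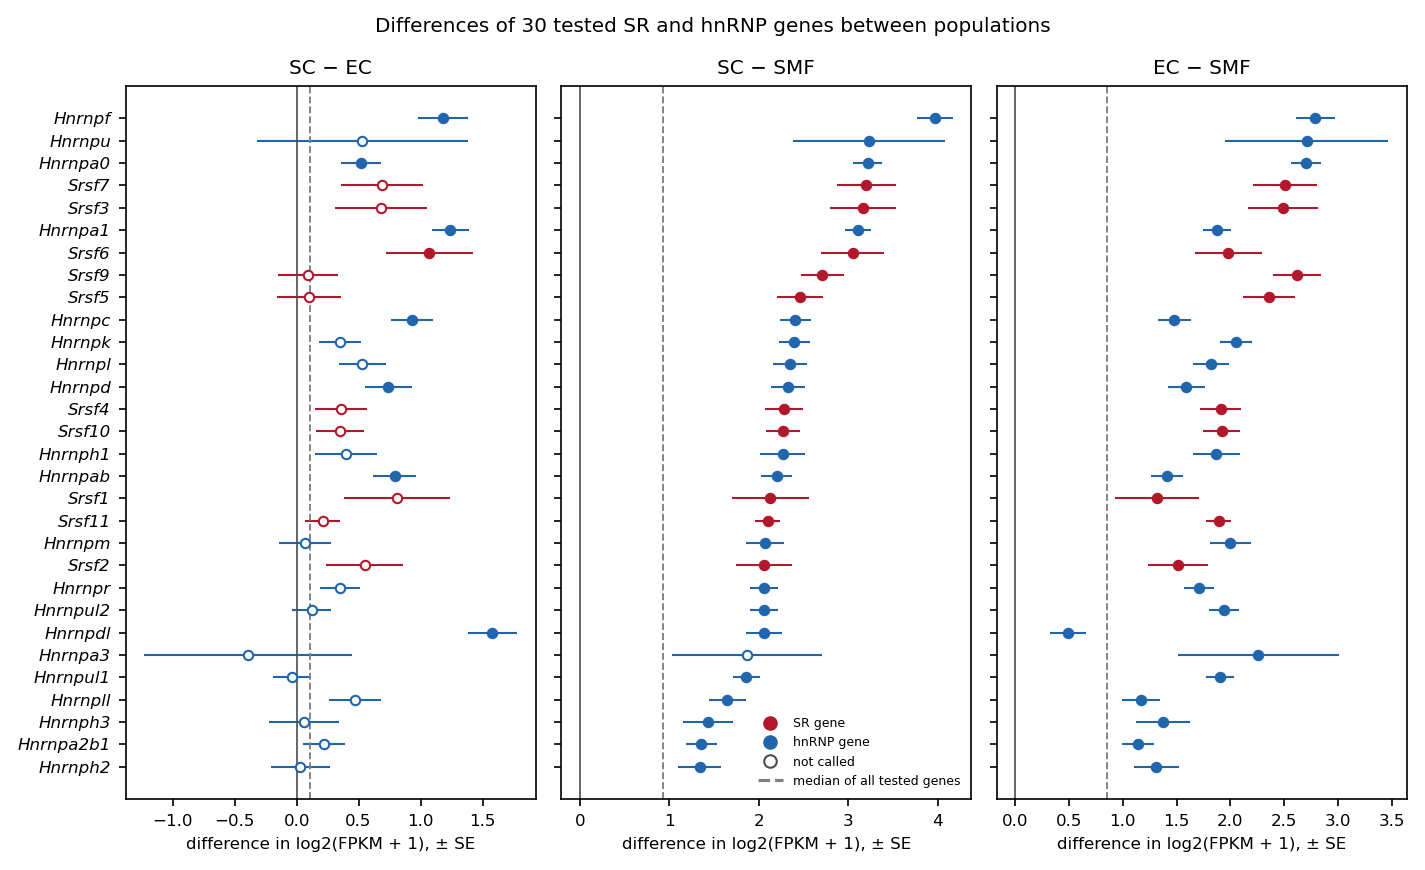
Difference of each of the 30 tested members in log2(FPKM + 1), with its SE, for SC minus EC, SC minus SMF and EC minus SMF. Filled points passed an adjusted p of 0.05, and the dashed line is the median of all 16700 genes (0.11, 0.93 and 0.85). Hnrnpdl is the rightmost point of the first panel and the leftmost of the last.

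Endothelial cells were also above fibres. All 30 tested members were higher in EC, against 66.3% of all genes called in either direction, 55.5% higher and 10.8% lower, with 26 higher after trimmed scaling, 20 higher and 1 lower after upper-quartile scaling and 18 higher and 1 lower after median-of-ratios scaling. Under these 3 scalings 59.4%, 56.7% and 56.7% of all genes were called in either direction. The members' median difference was 1.90, beside 0.85 for all genes, and EC lay above SMF without overlap for 29 of 30 members (96.7%) and 58.9% of all genes. This comparison and the preceding one share the fibre libraries. On log2(FPKM + 1), Hnrnpf (2.79, SE 0.18, adjusted p = 5.08e-06) again stood at the top, followed by Hnrnpu with its uneven replicates (2.71, described below). Next came Hnrnpa0 (2.70, SE 0.14, adjusted p = 2.10e-06) and Srsf9, a short SR protein (2.62, SE 0.22, adjusted p = 2.19e-05). Srsf9 had 11.3, 11.2 and 15.9 FPKM in EC against 1.86, 1.09 and 0.824 FPKM in SMF. By ratio of means, Hnrnpr (11.2, scarce in fibres), Srsf9 (10.2) and Hnrnpa0 (8.85) stood above Hnrnpf (8.18). In TPM, Hnrnpr also stood above Hnrnpf against SMF, for EC (3.20 and 2.86) and for SC (4.16 and 4.04). Srsf7 and Srsf3 differed by 2.51 (SE 0.30, adjusted p = 0.00016) and 2.49 (SE 0.33, adjusted p = 0.00029), Srsf5 by 2.36 (SE 0.24, adjusted p = 6.18e-05) and Srsf6 by 1.98 (SE 0.31, adjusted p = 0.000801). Hnrnpa1 differed by 1.88 (SE 0.13, adjusted p = 9.76e-06), Hnrnpab by 1.41 (SE 0.15, adjusted p = 9.69e-05) and Hnrnpa2b1 by 1.14 (SE 0.15, adjusted p = 0.000318). After median-of-ratios scaling Hnrnpab (0.03, adjusted p = 0.887), Srsf6 (0.76, adjusted p = 0.0841) and Hnrnpa2b1 (-0.25, adjusted p = 0.133) were not called, nor were Hnrnpab (0.19, adjusted p = 0.270) and Hnrnpa2b1 (-0.08, adjusted p = 0.618) after upper-quartile scaling.

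Hnrnpdl was called in opposite directions under different scalings. In SMF it had 10.8, 8.62 and 9.70 FPKM, just under the 17.3, 11.4 and 13.8 FPKM of EC (0.49, SE 0.17, adjusted p = 0.0382). The call was lost without SC replicate 3 (0.49). Without EC replicate 1 or 3 or SMF replicate 2 or 3 the call was lost too (0.34 to 0.50, adjusted p of 0.0796 to 0.119). After median-of-ratios and upper-quartile scaling it was the 1 member called lower in EC, by -0.84 (adjusted p = 0.00263) and -0.67 (adjusted p = 0.00749). After trimmed scaling it differed by -0.15 (adjusted p = 0.451). In TPM, Hnrnpdl was called higher in EC than in SMF (0.90, limma adjusted p = 0.0127). Trimmed scaling moved the median difference of all genes to -0.12 for SC minus EC, 0.44 for SC minus SMF and 0.55 for EC minus SMF, upper-quartile scaling to 0.10, 0.37 and 0.28, and median-of-ratios scaling to -0.00, 0.21 and 0.19. The members' medians were 0.12, 1.41 and 1.35 after trimmed scaling, 0.42, 1.23 and 0.83 after upper-quartile scaling and 0.27, 0.91 and 0.68 after median-of-ratios scaling. A scaling divides all FPKM of a library by 1 number, but on log2(FPKM + 1) genes with low FPKM move less. For EC minus SMF, median-of-ratios scaling moved Hnrnpa2b1 from 1.14 to -0.25 and the scarce Hnrnpll from 1.17 to 0.59. The plot of the 4 scalings shows these moves. In the authors' deposited table, which lists 29 members, the specificity score was highest for SC and negative for SMF in all 29. The share of all loci with this pattern was not counted. Mean TPM was still higher in EC than in SC for Hnrnph2 (10.9 against 9.74), Hnrnpm (48.6 against 45.4) and Hnrnpul1 (29.2 against 29.0).

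**Figure D3:**
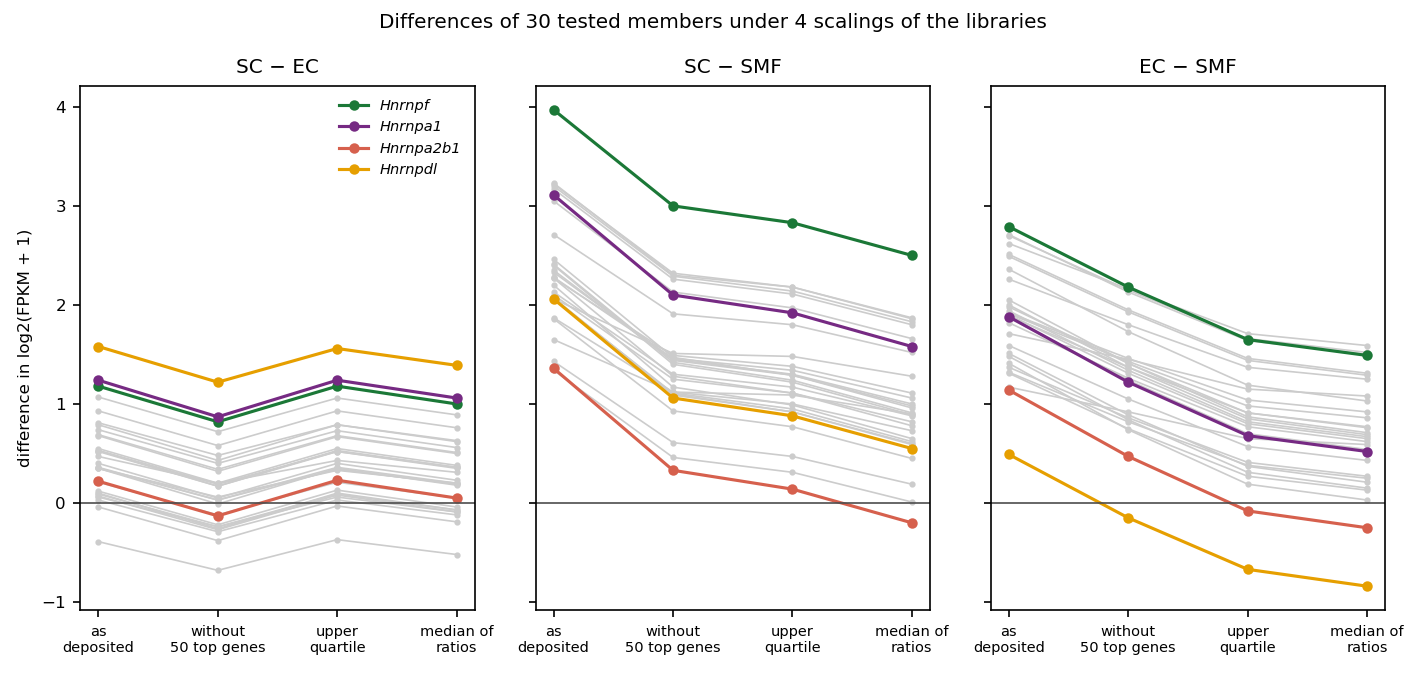
Difference in log2(FPKM + 1) of the 30 tested members (lines), as deposited and under the 3 other scalings of the libraries, with Hnrnpf, Hnrnpa1, Hnrnpa2b1 and Hnrnpdl in colour. In EC minus SMF, Hnrnpdl passes from 0.49 as deposited to -0.84 after median-of-ratios scaling and Hnrnpa2b1 from 1.14 to -0.25, while Hnrnpf stays above 1.

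The make-up of each family, as the share of a member in its family's summed FPKM of the same library, does not depend on scaling. It does rest on gene FPKM, and shares in TPM were not tested. Hnrnpa2b1 made up 7.72% and 8.12% of hnRNP FPKM in SC, 10.5%, 10.6% and 11.0% in EC and 15.0%, 19.2% and 18.8% in SMF. The 3 groups did not overlap. Hnrnpf ran the other way, with means of 12.9%, 8.95% and 4.10% in SC, EC and SMF and again no overlap. Hnrnpa1 held 14.5% ± 0.293 in SC, 9.64% ± 1.28 in EC and 9.09% ± 0.240 in SMF (SD), and EC and SMF overlapped. Hnrnpdl held 5.69% and 5.85% in SC, 3.53%, 2.74% and 2.57% in EC and 7.43%, 6.97% and 8.08% in SMF, so that endothelial cells stood lowest. Among SR genes, Srsf2, which acts in constitutive and alternative splicing, held 11.9% in SC, 11.4% in EC and 19.4% in SMF, where it lay above the others without overlap. Srsf7 held 14.0%, 12.2% and 8.70%, lowest in SMF, and Srsf5 19.9%, 26.5% and 24.9%, lowest in SC.

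**Figure D4:**
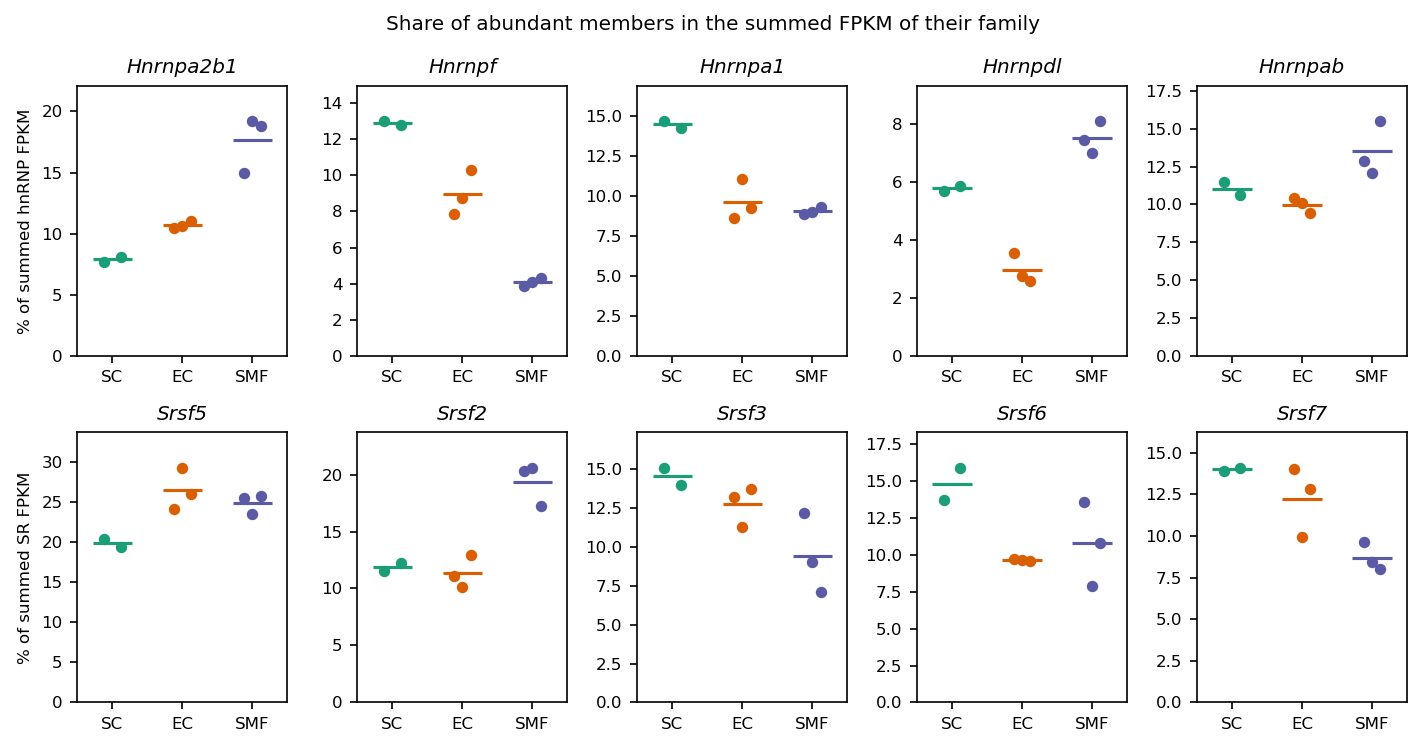
Share of 5 hnRNP genes (top) and 5 SR genes (bottom) in the summed FPKM of their family, in % for each library (points) with the group mean (line). The share of Hnrnpa2b1 is lowest in SC and highest in SMF, and that of Hnrnpf the reverse.

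Ratios between paralogs within a library were compared by exact permutation of the libraries, two-sided, for which the smallest p is 0.1 with these group sizes; 30 tests were made and none had an adjusted p under 0.429. Hnrnpa1 over Hnrnpa2b1, closely related shuttling proteins, was 1.90 and 1.75 in SC, 0.817, 1.04 and 0.841 in EC and 0.593, 0.469 and 0.497 in SMF. Each pair of groups was separated, with log2 differences of 1.03 for SC minus EC, 1.82 for SC minus SMF and 0.79 for EC minus SMF (exact p = 0.1 each). Hnrnpd over Hnrnpdl was 0.390 and 0.356 in SC, 0.575, 0.655 and 0.789 in EC and 0.265, 0.243 and 0.245 in SMF, also separated in each pair (-0.84, 0.57 and 1.41; exact p = 0.1 each). Srsf3 over Srsf7 was 1.04, 1.05 and 1.08 on average, with overlap in every pair. Summed SR over summed hnRNP FPKM averaged 0.311 in SC, 0.346 in EC and 0.241 in SMF, and only EC and SMF were separated (0.54, exact p = 0.1). Srsf1 over Hnrnpa1, a pair with opposed effects on splice site choice, overlapped in every pair of groups, from 0.0793 to 0.142 in SC, 0.0858 to 0.207 in EC and 0.0950 to 0.341 in SMF. These ratios are of gene FPKM, and TPM, which was not tested, differed for some. Srsf1 over Hnrnpa1 was then lower in each SC library than in any other library. Mean TPM was 13.6 over 81.8 in SC, 10.9 over 32.9 in EC and 2.80 over 7.87 in SMF. Srsf3 over Srsf7 was higher in EC (30.3 over 14.7) than in SMF (2.77 over 1.90) without overlap. Hnrnpa1 over Hnrnpa2b1 and Hnrnpd over Hnrnpdl stayed separated in each pair.

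A few members had uneven replicates. Hnrnpu, a large nuclear scaffold protein, had 57.1 and 58.2 FPKM in SC, 42.2, 32.5 and 45.4 FPKM in EC and 14.1, 9.47 and 0.528 FPKM in SMF. Fibre replicate 3 was far below the other fibre libraries, and the differences from fibres (3.23, SE 0.85, adjusted p = 0.0108 for SC, and 2.71, SE 0.76, adjusted p = 0.0141 for EC) were lost under all 3 other scalings. Without SC replicate 1 (3.25) or 3 (3.22) the call for SC was lost too. The difference of SC ran from 2.22 to 3.88 over all runs with 1 library left out. Srsf1, among the first SR proteins to be described, had 15.3 and 8.78 FPKM in SC, 8.71, 3.95 and 6.74 FPKM in EC and 1.22, 1.24 and 3.82 FPKM in SMF. Here fibre replicate 3 was the highest of its group. Srsf1 was higher in SC than in SMF (2.13, SE 0.43, adjusted p = 0.00317) and in EC than in SMF (1.32, SE 0.39, adjusted p = 0.0175). The call for EC was lost without EC replicate 1 or 3 or SMF replicate 1 or 2 (1.10 to 1.26, adjusted p of 0.0518 to 0.0617). The call for SC was lost after upper-quartile and median-of-ratios scaling and the call for EC after all 3 other scalings. In TPM the Srsf1 replicates lay closer together, at 15.0 and 12.3 in SC, 10.9, 9.7 and 12.0 in EC and 3.54, 1.97 and 2.88 in SMF. There both differences from SMF were called (1.96 and 1.66, limma adjusted p = 0.00013 and 0.000144). Hnrnpa3 had 4.12 and 15.1 FPKM in SC, 16.4, 3.61 and 20.2 FPKM in EC and 4.53, 0.841 and 0.511 FPKM in SMF, and the 3 groups overlapped. It differed by 1.87 for SC minus SMF (SE 0.84, adjusted p = 0.0832). That difference was called without SMF replicate 1 (2.45, adjusted p = 0.0383) or EC replicate 2 (1.87, adjusted p = 0.0476). It ran from 1.04 to 2.70 over all runs with 1 library left out. For EC minus SMF Hnrnpa3 differed by 2.26 (SE 0.75, adjusted p = 0.0283). It was not called without SMF replicate 2 or 3 or EC replicate 1 or 3 (1.85 to 2.04, adjusted p of 0.0848 to 0.0944). Nor was it called under any of the 3 other scalings.

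For Hnrnpa3 and Hnrnpu the transcript table showed where this unevenness sat. For 12 of the 31 members, Srsf1 not among them, the listed transcripts accounted for the gene value, to within 1% of a constant factor. In Hnrnpa3 the transcript with most FPKM was a coding one of 5150 bases in SC replicate 3, EC replicates 1 and 3 and SMF replicate 1, and one of 1654 bases in SC replicate 1, EC replicate 2 and SMF replicate 2. A retained-intron transcript of 596 bases held 41.5% of the listed FPKM in SC replicate 1 and 80.9% in SMF replicate 3. Gene FPKM of these members follows transcript FPKM weighted by length. Summed over transcripts without that weight, Hnrnpa3 had 18.3 and 15.8 FPKM in SC, 17.2, 11.8 and 21.1 FPKM in EC and 4.75, 2.74 and 4.40 FPKM in SMF. On this sum SC and EC overlapped, both stood above SMF, and the differences from SMF were 1.89 (SE 0.29, limma adjusted p = 0.000999) and 1.82 (SE 0.26, adjusted p = 0.000588). This sum was added after the values had been seen.

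In Hnrnpu the coding transcript of 7640 bases had 64.1 and 65.6 FPKM in SC, 46.0, 35.9 and 50.1 FPKM in EC and 14.8, 9.91 and 0 FPKM in SMF. A retained-intron transcript of 673 bases had 16.6 and 18.6 FPKM in SC, 15.2, 11.4 and 17.9 FPKM in EC and 9.75, 7.46 and 3.48 FPKM in SMF. Transcripts annotated as retained intron or as subject to decay made up 27.3% and 24.5% of the gene's listed FPKM in SC, 36.4%, 32.7% and 32.7% in EC and 49.4%, 46.2% and 83.3% in SMF. These shares did not overlap between the 3 groups, and without fibre replicate 3 the fibre values still stood highest. In 1209 other genes with such transcripts and a full account, the median share was 17.8% and 19.3% in SC, 18.4%, 17.0% and 20.4% in EC and 11.4%, 12.1% and 12.8% in SMF libraries. The other members with such a share did not show the order of Hnrnpu. Srsf11 had 59.0% and 93.6% in SC, 83.1%, 81.3% and 78.9% in EC and 70.9%, 80.9% and 65.5% in SMF. Hnrnpr had 69.8% and 74.9% in SC, 76.8%, 90.5% and 92.4% in EC, and 74.0% and 84.5% in SMF replicates 1 and 2, with too little FPKM for a share in SMF replicate 3. In Hnrnpa3 the share was 0 in 6 libraries, 41.5% in SC replicate 1 and 80.9% in SMF replicate 3. In Srsf6 the same share ran from 25.0% to 61.4% in SC, 33.5% to 74.1% in EC and 7.91% to 100.0% in SMF, too wide within a group for a comparison.

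**Figure D5:**
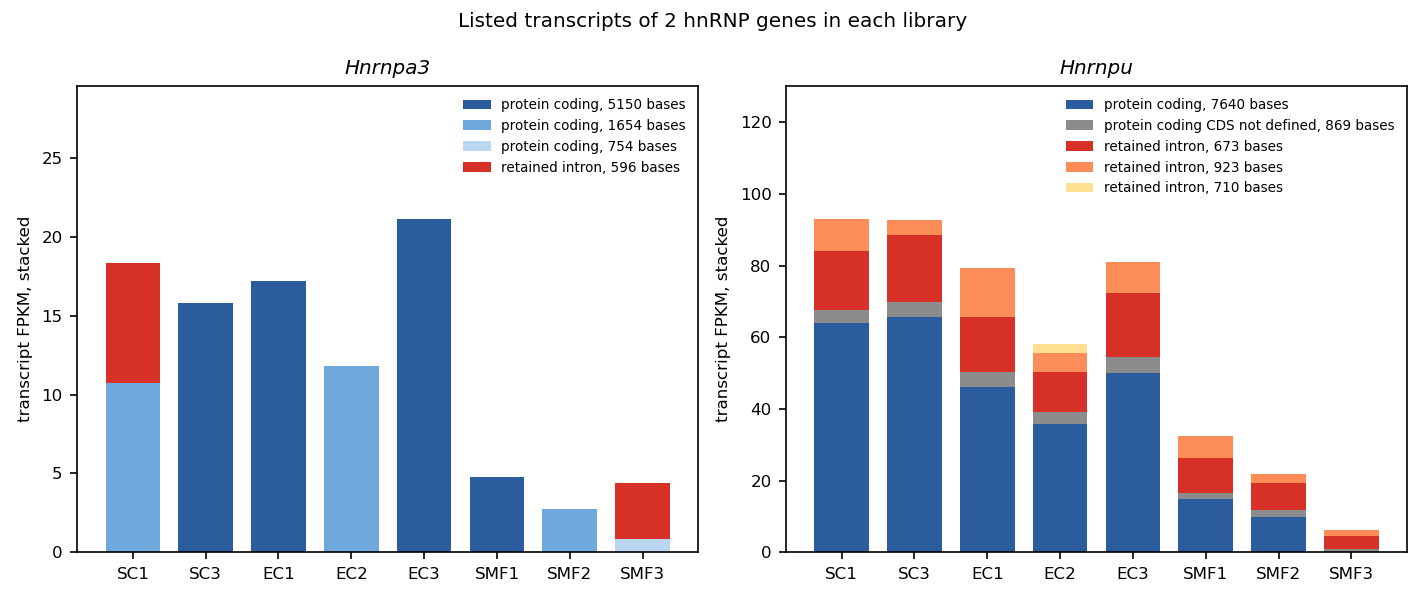
FPKM of the listed transcripts of Hnrnpa3 (left) and Hnrnpu (right), stacked for each library and coloured by annotated type and length. In Hnrnpa3 the leading transcript changes between replicates, and in Hnrnpu the coding transcript of 7640 bases is listed at 0 in SMF replicate 3.

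Over the 96 member transcripts tested, 1 was higher and 1 lower in SC than in EC, against 21.3% of all 22456 transcripts called in either direction, 11.4% higher and 9.88% lower. The higher one was the 2844-base coding transcript of Hnrnpc, which alone makes up the gene value (0.93, SE 0.18, adjusted p = 0.0101). The lower one was a 645-base retained-intron transcript of Srsf1, with 0.506 and 0 FPKM in SC against 3.00, 2.55 and 1.95 FPKM in EC (-1.50, SE 0.39, adjusted p = 0.0348). Its call held in 4 of 16 alternatives (adjusted p of 0.0206 to 0.173) and was lost under all 3 other scalings and without SC replicate 1 or 3, EC replicate 1, 2 or 3 or SMF replicate 3, with differences of -3.38 to -1.20 over the 16 alternatives. The Srsf1 gene value differed by 0.81 (SE 0.43, adjusted p = 0.185). In SC, 43 transcripts were higher than in fibres and 0 lower, beside 39.7% of all transcripts called (34.3% higher, 5.42% lower). In EC, 40 were higher than in fibres and 0 lower, beside 42.9% called (35.8% higher, 7.06% lower). Trimmed, upper-quartile and median-of-ratios scaling gave 23, 20 and 13 calls for SC minus SMF and 27, 11 and 12 for EC minus SMF, of the 96 tested. Under the same scalings 28.5%, 29.4% and 27.0% of all transcripts were called for SC minus SMF. For EC minus SMF these shares were 37.7%, 34.2% and 34.7%. Member transcripts were thus called less often than all transcripts under each of the 3 scalings. In 4 of 7 fully accounted members with several transcripts (Hnrnph2, Hnrnpu, Srsf11 and Srsf6) the transcript leading on average differed between populations, and in 0 of the 7 did 1 transcript lead in every library.

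The kinases, phosphatase and import factor that act on SR proteins gave 0 calls among 10 genes between SC and EC (1 at an unadjusted p under 0.05, and 1 lower under 2 scalings), and 8 were higher and 1 lower in SC than in SMF as in EC than in SMF. Of all genes, 37.7% were called between SC and EC, and 56.5% and 55.5% were higher in SC and in EC than in SMF. After median-of-ratios scaling these counts turned to 1 higher and 4 lower for SC minus SMF and 2 higher and 5 lower for EC minus SMF, and after upper-quartile scaling to 4 higher and 3 lower in both. Srpk3, an SR protein kinase known from striated muscle, was the gene above in fibres under every scaling. It had 0.451 and 0.685 FPKM in SC, 0.478, 0.382 and 0.958 FPKM in EC and 3.56, 4.54 and 2.93 FPKM in SMF (-1.57, SE 0.22, adjusted p = 0.000473 for SC, and -1.55, SE 0.20, adjusted p = 0.000243 for EC). Fibre libraries were all above the others. The related kinases Prpf4b (38.7, 40.4 and 7.43 FPKM in SC, EC and SMF) and Clk1 (34.9, 30.1 and 7.57 FPKM) were higher in SC than in SMF by 2.23 and 2.13, and Clk1 lost that call after median-of-ratios scaling (adjusted p = 0.106). All 12 SR-related factors were higher in SC and in EC than in SMF, Pnn at 33.1, 27.2 and 5.19 FPKM being an example, with 8 and 7 called after median-of-ratios scaling and 0 lower, and between SC and EC 0 were called (2 at an unadjusted p under 0.05).

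The hnRNP proteins that carry other symbols showed the largest contrasts between SC and EC, with 4 of 11 higher in SC and 1 lower, beside 21.2% and 16.4% of all genes. Pcbp4, a poly-C binding protein, had 10.5 and 14.3 FPKM in SC, against 0.791, 0.701 and 1.25 FPKM in EC (2.80, SE 0.19, adjusted p = 2.5e-05). Syncrip averaged 16.7 FPKM in SC and 7.93 FPKM in EC (0.99, SE 0.14, adjusted p = 0.0013). Ptbp3, a polypyrimidine tract binding protein, was the gene below, with 11.2 and 10.2 FPKM in SC, against 25.9, 27.9 and 27.3 FPKM in EC (-1.26, SE 0.13, adjusted p = 0.00021), and 0.326, 0.393 and 0.402 FPKM in SMF. The signs and calls of these 3 genes held under each scaling. Pcbp1 averaged 61.8 FPKM in SC and 35.1 FPKM in EC (0.79, SE 0.21, limma adjusted p = 0.019). It lost its call after trimmed scaling (0.44, adjusted p = 0.171). All 11 were higher in SC than in SMF and 9 higher in EC than in SMF, beside 56.5% and 55.5% of all genes. Median-of-ratios scaling left 8 higher, and 5 higher with 2 lower.

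Further lists covered the spliceosome and its partners. Of all genes, 21.2% were called higher for SC minus EC, 56.5% for SC minus SMF and 55.5% for EC minus SMF. The tri-snRNP, paraspeckle and decay lists below had a smaller share called higher in SC than in EC than all genes had. Of 19 snRNP core, U1 and U2 proteins, 7 were higher in SC than in EC and 0 lower, with 1 after trimmed and 3 after median-of-ratios scaling and 0 without SC replicate 3. Snrpf, an Sm ring protein, was an example at 29.0 ± 7.70 FPKM in SC and 8.80 ± 1.02 FPKM in EC (SD, log2 difference 1.60, SE 0.33, adjusted p = 0.00695; 1.33, adjusted p = 0.0678 without SC replicate 3). In this list 15 were higher in SC than in SMF and 12 higher in EC than in SMF, and median-of-ratios scaling gave 8 higher with 3 lower, and 8 higher with 4 lower. Of 13 tri-snRNP and catalytic proteins, 2 were higher in SC than in EC, 9 higher in SC than in SMF, and 10 higher with 1 lower in EC than in SMF, and after median-of-ratios scaling 1, 6 with 3 lower, and 6 with 1 lower. The ubiquitin ligase Prpf19 was the lower one, at 6.61 FPKM in SC, 2.25 FPKM in EC and 5.70 FPKM in SMF (EC minus SMF -1.03, SE 0.16, adjusted p = 0.000663), and stood lowest in EC under every scaling. All 8 paraspeckle and FET proteins were higher in SC and in EC than in SMF, among them Sfpq at 65.9, 50.0 and 8.38 FPKM, and 7 and 6 were called after median-of-ratios scaling, while Ewsr1 alone was higher in SC than in EC (19.9 and 12.9 FPKM, 0.60, SE 0.15, adjusted p = 0.0167; not called after trimmed scaling or without SC replicate 3, with adjusted p = 0.0586). Of 13 exon junction and nonsense-mediated decay factors, 12 were higher in SC than in SMF and 11 higher in EC than in SMF, and median-of-ratios scaling gave 6 and 7 higher with 1 lower in each. Upf3b was the 1 factor called higher in SC than in EC (11.2 and 7.08 FPKM, 0.58, SE 0.17, adjusted p = 0.0273), and was not called after trimmed or median-of-ratios scaling or without SC replicate 3 or EC replicate 3 (adjusted p = 0.120 and 0.0710). Upf2 turned from 0.84 (adjusted p = 0.00477) to -0.59 (adjusted p = 0.0308) for SC minus SMF after median-of-ratios scaling.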

How the data were processed

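The libraries were made from total RNA (10 ng) with a stranded, random-primed kit that cuts ribosomal cDNA, and read as pairs of 50 bp, per the labels' protocols. The submitters' processing notes name HISAT2 and StringTie on mm10, beside Trimmomatic, FastQC and bedtools; settings, use of strand, and treatment of reads that match several genomic copies were not stated there, so whether reads of antisense genes or processed copies entered the values of SR and hnRNP genes is not known. The authors deposited FPKM for each gene, FPKM and read coverage (signal) for each transcript, and TPM with a specificity score for each locus, per the file headers. The transcript table was held in part, with 25348 transcript numbers absent. The table of TPM has no row named Hnrnpa3 or Hnrnpu.

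Genes or transcripts with FPKM of at least 1 in 2 libraries were fitted with limma 3.58.1 (R 4.3.3) on log2(FPKM + 1) with a trend of variance on mean level, 1 mean for each of the 3 groups and all 8 libraries, two-sided, with Benjamini-Hochberg adjustment over all 16700 genes or 22456 transcripts. Members and lists (7 pathway lists, 7 marker lists) were chosen with earlier results of these data known. Statistics were printed for up to 6 called members in each direction and the 4 most abundant of each family, and for up to 3 genes of a list; Hnrnpd, Hnrnpa0, Hnrnpa3, Srsf1, Hnrnpdl and Hnrnpu against fibres and Hnrnph2 were added after their values were seen. Transcript types came from GENCODE vM39 by Ensembl ID (168 of 170 transcripts), gene coordinates and upstream windows from RefSeq on GRCm38.p6. Tested on simulated data with 50 of 16700 genes changed at each size, the fit recovered 30% of genes changed by 1 log2 unit and 80% of those changed by 2 for SC minus EC. It made 12 false calls. In the data 37.7% of genes were called, and the adjusted threshold depends on that share, so these rates do not carry over to the data. Libraries with the same number did not deviate together (correlations from -0.058 to 0.091 over 7 pairs), so numbers were not used as a block.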

Additional observations from a re-analysis of the deposited data

How the results depend on the processing

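Among the values recomputed for the named genes and transcripts, 869 kept direction and side of the threshold, 95 kept direction but lost the call, 3 gained one and 13 reversed; 317 counts for the lists stayed within 1.5 times and 40 did not. Members called for SC minus EC numbered 8, with 4 under trimmed scaling (without the 50 most abundant genes) and 5 to 8 when 1 library was left out (5 without SC replicate 1). For EC minus SMF 19 of 30 were called after median-of-ratios scaling, with 27 to 30 when 1 library was left out; for SC minus SMF all counts stayed within 1.5 times. Called transcripts for SC minus EC numbered 2, with 1 without the filter, 4 at FPKM of at least 5, 3 after trimmed scaling, 3 with the replicate block, and 1 to 9 when 1 library was left out. For SC minus SMF they came to 23 (trimmed), 20 (upper quartile) and 13 (median of ratios), and for EC minus SMF to 11 (upper quartile) and 12 (median of ratios). Reversed were Hnrnpa2b1 for SC minus EC (-0.13, trimmed), SC minus SMF (-0.20, median-of-ratios) and EC minus SMF (-0.25, median-of-ratios; -0.08, upper quartile), Srsf5 for SC minus EC (-0.07, median-of-ratios; -0.26, trimmed; -0.05, replicate block), Hnrnpdl for EC minus SMF (-0.84, median-of-ratios; -0.67, upper quartile; -0.15, trimmed) and Upf2 for SC minus SMF (-0.59, median-of-ratios; -0.28, upper quartile; -0.10, trimmed). With the replicate number as a block, 6, 29 and 30 members were called for SC minus EC, SC minus SMF and EC minus SMF. The cause of these changes was not tested. In TPM, 6, 28 and 28 of 28 members were called higher, beside 33.8%, 66.8% and 68.4% of all loci called in either direction. A single fragment per kilobase equals 0.172 to 0.190 FPKM in fibre libraries and 0.272 to 0.360 FPKM in the others, which limits Srsf12, Hnrnpr and Hnrnpll in fibres.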
